A study of Mus musculus with 7 samples.

Results

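Heat shock proteins and the DnaJ proteins that work with them were compared between ribosome-bound RNA of wild-type and *nm3888*-/- Purkinje cells. The genes are those whose GENCODE symbol starts with Hsp or Dnaj, without *Hspg2*, *Hspbap1* and names ending in -ps, and with at least 10 counts in each of 3 or more libraries. Of 73 genes so named, 65 reached the minimum (39 Dnaj and 26 Hsp genes) among 18086 genes that did so in the series. The 8 that did not were *Dnajb7*, *Dnajb8*, *Dnajb13*, *Dnajc5b*, *Dnajc5g*, *Dnajc22*, *Hspb2* and *Hspb9*, which had 0 to 8 counts in every library.

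The libraries came from cerebella of 3 wild-type and 4 *nm3888*-/- mice, 1 mouse each, all 3 weeks old. Mice of both genotypes carried an HA-tagged ribosomal protein RPL22 switched on by PCP2-Cre, which is active in Purkinje cells, and the RNA was polyadenylated RNA pulled down with an antibody to HA. The mutants were homozygous for *nm3888*, a spontaneous insertion of an endogenous retrovirus in an intron of *Rreb1* that removes a brain-enriched transcript of this zinc finger transcription factor, and the study places the onset of Purkinje cell loss after this age. The first library series held wild types 1 and 2 and mutants 1 and 2, all female, and the second held wild type 3, which was female, and mutants 3 and 4, which were male, so that sex and genotype cannot be told apart within the second series. *Rreb1* itself was at 17.7, 17.4 and 14.4 CPM (counts per 1000000 counts, TMM-normalised) in wild types 1 to 3 and at 20.2, 19.1, 23.7 and 10.8 CPM in mutants 1 to 4. The mutants were not lower (log2 fold change 0.20, SE 0.23, edgeR adjusted p = 0.64), and mutants 1 to 3 were above every wild type, although the study describes a loss of the main *Rreb1* transcript in the mutant brain. The counts cover all transcripts of the gene together, and in them the targeted gene goes against the mutant label. Wild type and mutant therefore mean the libraries labelled so throughout, and each direction given rests on these labels. The 11 Purkinje cell markers summed to 44228 to 49385 CPM in wild-type and 40339 to 55396 CPM in mutant libraries, and none of them was called.

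Heat shock proteins are molecular chaperones: HSP70 and HSP90 proteins fold and refold client proteins by cycles of ATP hydrolysis, and small heat shock proteins hold unfolding clients without ATP. DnaJ proteins bring clients to HSP70 and switch on its ATPase. Some of these genes are kept on in every cell, others are induced by heat shock factor 1 when proteins misfold in the cytosol, and those of the endoplasmic reticulum (ER) are induced by the unfolded protein response. Purkinje cells are known for their sensitivity to faulty ER folding, as mice without the BiP partner SIL1 lose them.

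The heat shock element, the sequence that heat shock factor 1 binds, and the ER stress element are marked, where found, before starts of genes. Shown are 3 small heat shock genes that rose in the mutant. *Hspa1a* (inducible HSP70) and *Hspa5* (ER chaperone), which did not pass the test, are shown beside them. *Hspb6* and *Hspb7* belong to none of the stress-inducible, constitutive and ER classes compared below. The sequences are RefSeq promoters on GRCm38.p6, on the strand of the gene, from base 150 to base 41 before the start (from base 70 to base 41 for *Hspa5*). Capitals mark the letters GAANNTTC or TTCNNGAA, searched on both strands, each being its own reverse complement and both overlapping in longer runs, and for *Hspa5* the letters CCAAT and CCACG with 9 bases between them, also searched on both strands. The positions are chr5:135887769-135887878 (*Hspb1*, plus strand), chr7:30553151-30553260 (*Hspb6*, plus strand, before the second of 2 starts), chr4:141420629-141420738 (*Hspb7*, plus strand), chr17:34972197-34972306 (*Hspa1a*, minus strand) and chr2:34772020-34772049 (*Hspa5*, plus strand).
*Hspb1*: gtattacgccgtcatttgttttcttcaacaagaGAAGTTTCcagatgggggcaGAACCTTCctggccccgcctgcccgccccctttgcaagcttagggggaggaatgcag
*Hspb6*: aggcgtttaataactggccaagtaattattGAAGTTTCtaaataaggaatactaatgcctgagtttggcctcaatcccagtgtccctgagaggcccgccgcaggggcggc
*Hspb7*: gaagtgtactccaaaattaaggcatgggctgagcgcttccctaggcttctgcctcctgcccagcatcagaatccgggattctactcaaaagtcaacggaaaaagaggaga
*Hspa1a*: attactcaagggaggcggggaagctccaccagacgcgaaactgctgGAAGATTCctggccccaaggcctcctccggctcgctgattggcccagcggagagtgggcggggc
*Hspa5*: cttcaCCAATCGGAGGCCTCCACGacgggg

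The heat shock letters occurred in 15.1% of the 32851 RefSeq promoters, each from 250 bases before to 50 bases after a start. Of the 65 genes, 54 had an entry, with 71 promoters in all, of which 23.9% held the letters. Counted by gene, 15 of the 54 held them in at least 1 promoter. By class they stood in 6 of the 7 stress-inducible genes with an entry, in 0 of 7 constitutive genes, in 1 of 7 ER genes and in 2 of the 3 other small heat shock genes. *Hspb1* held them 2 times, starting 117 and 97 bases before the start, and *Hspa1a* held them 104 bases before the start. *Hspb6* held them 120 bases before the second of its 2 starts, within the span of the gene, and its other promoter held none. The promoter entry of *Hspb7* held none. The ER stress letters, found in 0.119% of all promoters, stood in 3 of the 7 ER genes with an entry, *Hspa5*, *Hsp90b1* and *Dnajc3*. These letters are a description of the promoters and not sites shown to be bound.

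All 65 genes were tested by edgeR's quasi-likelihood test with the library series as a term, adjusted over the 17621 genes tested (Benjamini-Hochberg). At an adjusted p under 0.05, 4 rose in the mutant (6.15%, where 2.58% of all genes tested rose) and 4 fell (6.15%, where 5.95% of all genes fell). *Hspb7*, described below, reached the count minimum through the mutant libraries alone, and among the 64 genes that reached it in both genotypes 3 rose (4.69%). Those that rose were the small heat shock genes *Hspb1*, *Hspb6* and *Hspb7* and the histone cochaperone gene *Dnajc9*, and those that fell were *Hspa12a*, *Dnajc18*, *Dnajc27* and *Dnajc28*. The share of falling genes was therefore near that of the background. Of the 65 genes, 58 had a log2 fold change between −0.5 and 0.5, and their median was 0.02 against 0.03 over all genes tested. The 57 uncalled genes lay between −0.30 and 0.52. With a replicate block instead of the series, in which mutant 4 has no wild type, *Hspb1*, *Hspb6* and *Hspb7* were called higher and no gene was called lower. No gene was called with the series left out or replaced by sex, where 309 and 102 genes were called over the whole table.

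**Figure D1:**
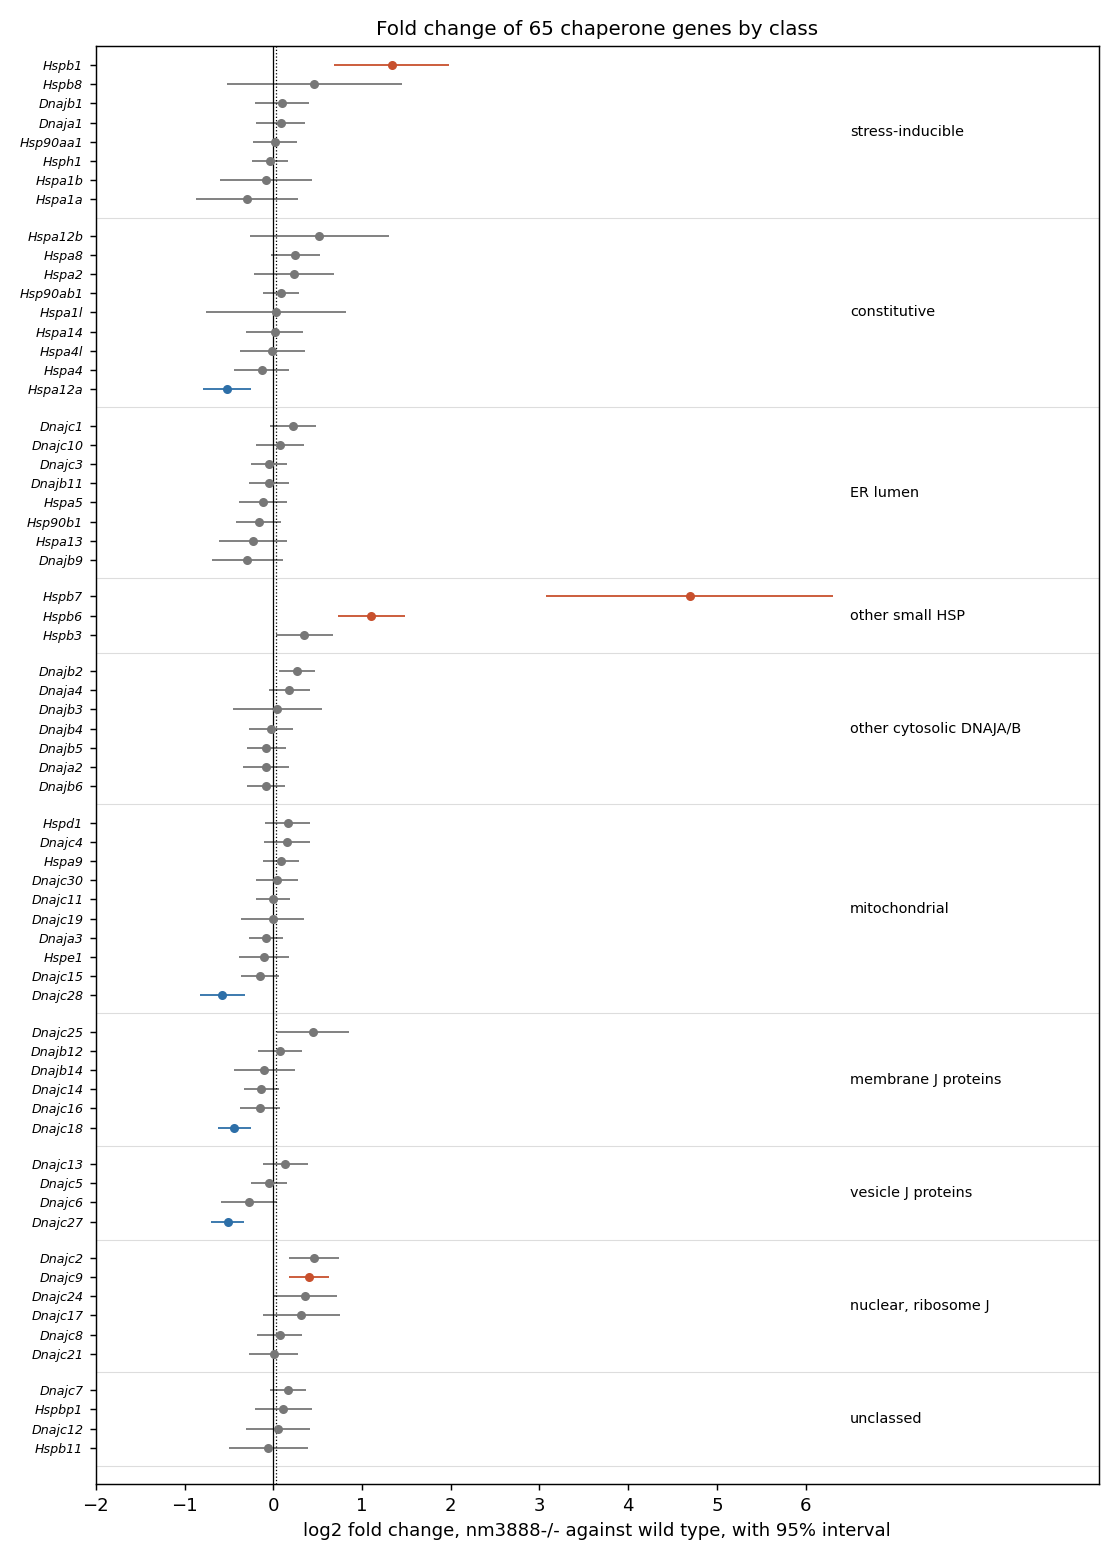
Log2 fold change (x axis, *nm3888*-/- against wild type) with its 95% interval for each of the 65 genes, grouped by class. Orange genes rose and blue genes fell at an adjusted p under 0.05 by edgeR, grey genes did not pass, and the dotted line is the median of all genes tested. The 3 orange genes *Hspb1*, *Hspb6* and *Hspb7* stand apart to the right, while the constitutive, ER and mitochondrial classes lie around 0. *Hspb7* reached the count minimum in mutant libraries alone, so its rise was built into its selection.

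Among the small heat shock genes, *Hspb1* and *Hspb6* were higher in every mutant library than in every wild-type library. So was *Hspb7*, but it reached the count minimum in mutant libraries alone, so a difference was built into its selection. No member besides these rose by more than 1 on the log2 scale. *Hspb1* encodes HSP27, a stress-inducible small heat shock protein that binds unfolding proteins and actin. It was at 6.40, 3.92 and 7.76 CPM in wild types 1 to 3, and at 15.4, 9.36, 14.7 and 27.5 CPM in mutants 1 to 4. The lowest mutant was thus above the highest wild type, and the spread within the mutants was wide (16.7 ± 7.67 CPM, SD, n = 4, against 6.03 ± 1.95 CPM, SD, n = 3). Its log2 fold change was 1.33 (SE 0.29, edgeR adjusted p = 0.0229). The gene lies at chr5:135887919-135889563 (mm10).

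*Hspb6*, at chr7:30552178-30555443, encodes HSP20, a small heat shock protein best known from muscle. Wild types 1 to 3 were at 17.1, 19.2 and 18.4 CPM and mutants 1 to 4 at 49.9, 39.0, 27.4 and 38.9 CPM. The wild types lay close together, and the lowest mutant was still clearly above them. The log2 fold change was 1.11 (SE 0.17, edgeR adjusted p = 0.00479). This was the member called in both series taken alone, with 1.29 (adjusted p = 0.00837) in the first series and 0.85 (adjusted p = 0.0484) in the second. Its call was kept without any 1 of the 7 libraries, with an adjusted p from 0.00221 to 0.0245.

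*Hspb7*, at chr4:141420779-141425311, encodes the small heat shock protein cvHSP of heart and muscle. It had 2, 0 and 7 counts in wild types 1 to 3 and 44, 23, 131 and 45 counts in mutants 1 to 4. In CPM these are 0.0790, 0 and 0.0683 in the wild types and 2.31, 0.685, 2.21 and 0.996 in the mutants. The gene reached the count minimum in mutant libraries alone, so a difference between the genotypes was built into its selection. The fitted log2 fold change of 4.69 (SE 0.71, edgeR adjusted p = 0.00476) rests on 9 wild-type counts and depends on how low counts are smoothed. Its mutant level of 1.55 ± 0.828 CPM (SD, n = 4) remained far below that of *Hspb6*.

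*Hspb8*, which encodes a partner of the cochaperone BAG3 in selective autophagy, did not pass the test. Its values were 0.948, 0.712 and 0.849 CPM in wild types 1 to 3 and 0.629, 0.805, 2.61 and 1.04 CPM in mutants 1 to 4, so that mutant 3 alone was well above the wild types (log2 fold change 0.46, SE 0.43, edgeR adjusted p = 0.57). *Hspb3*, named here after its values were seen as the remaining small heat shock gene, had a log2 fold change of 0.35 (SE 0.14, edgeR adjusted p = 0.17). *Cryab*, the small heat shock relative alpha-B crystallin, was at 5.14, 4.63 and 5.07 CPM in the wild types and 6.55, 4.47, 8.0 and 10.9 CPM in the mutants, and did not pass (log2 fold change 0.47, edgeR adjusted p = 0.26).

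**Figure D2:**
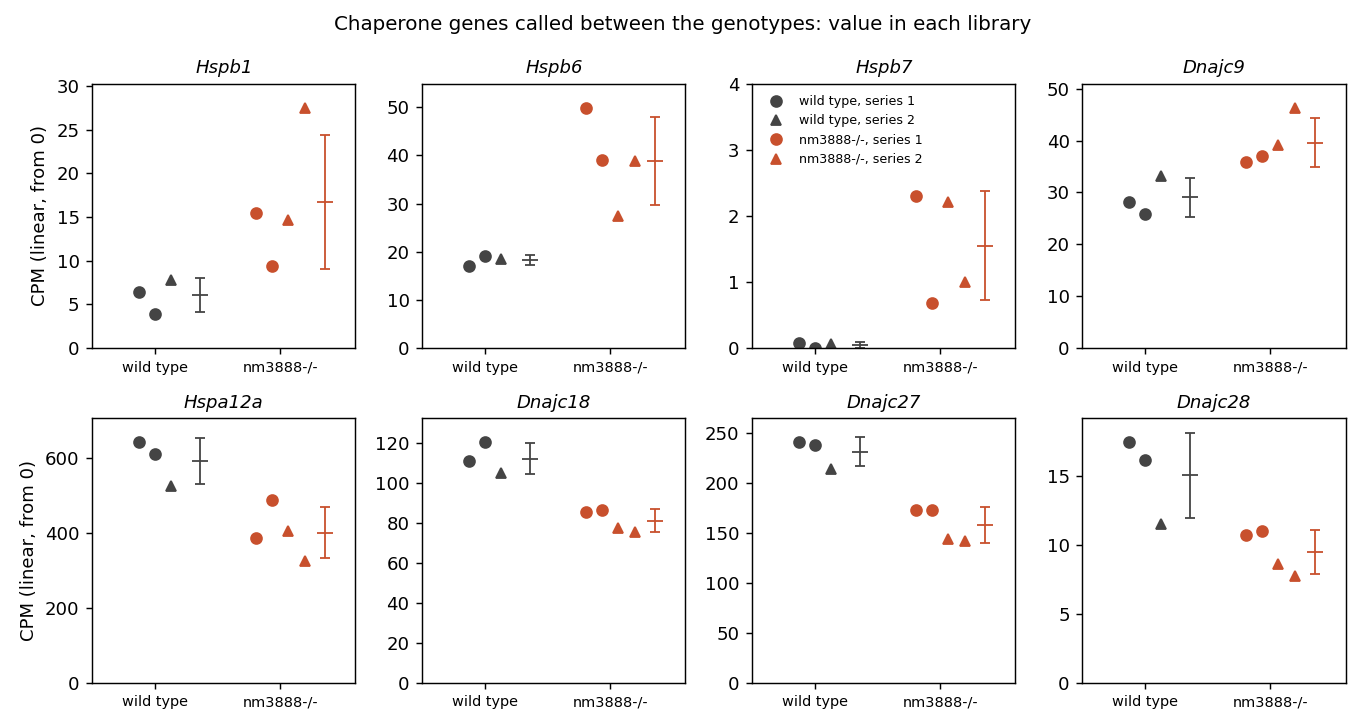
CPM (y axes, linear from 0) of the 8 called genes in each library, with circles for the first and triangles for the second library series and the mean ± SD beside each genotype. In each panel no mutant library overlaps a wild-type library. *Hspb7*, selected through its mutant libraries alone, is near 0 in wild type, and its mutants reach 0.685 to 2.31 CPM.

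Markers of other cerebellar cells also had medians above 0 in the mutant pulldown, though few single markers were called. Several of these cells are known to make small heat shock proteins. The median log2 fold changes were 0.59 for 12 Bergmann glia and astrocyte markers, 0.55 for 12 oligodendrocyte markers, 0.38 for 12 endothelial and pericyte markers, 0.63 for 8 microglial markers and 0.54 for 10 granule cell markers, against 0.06 for the Purkinje cell markers. The summed markers ran from 8175 to 13347 CPM in wild types and 9733 to 14217 CPM in mutants for Bergmann glia and astrocytes, a sum made mostly of *Aldoc*, which Purkinje cells also express. They ran from 507 to 738 against 689 to 1238 CPM for oligodendrocytes, from 35.0 to 55.0 against 54.1 to 78.9 CPM for endothelial cells and pericytes, from 7.87 to 17.3 against 8.88 to 22.5 CPM for microglia and from 494 to 602 against 667 to 1296 CPM for granule cells. No marker was at 0 in all libraries. Of the 12 Bergmann glia and astrocyte markers, 1 rose, *Gfap* (log2 fold change 1.04, edgeR adjusted p = 0.00788), and 1 fell, *Hopx* (log2 fold change −0.82, edgeR adjusted p = 0.0207). Of the 12 oligodendrocyte markers 2 rose, *Cnp* and *Cldn11*, and 0 fell, while *Olig1* had −0.53 (edgeR adjusted p = 0.11). None of the granule cell, microglial or endothelial and pericyte markers was called. Over all genes tested, 2.58% rose and 5.95% fell. Relative to the wild types of their series, the median Bergmann glia and astrocyte marker in mutants 1 to 4 was higher by 0.22, 0.26, 1.11 and 0.53 on the scale of log2(CPM + 0.5), while *Hspb6* was higher by 1.44, 1.09, 0.56 and 1.06. For the endothelial and pericyte markers these medians were −0.07, 0.02, 0.37 and 0.90, beside 1.53, 0.84, 0.88 and 1.76 for *Hspb1*. Oligodendrocyte markers had medians of 0.50, 0.17, 0.67 and 0.95 in mutants 1 to 4. Microglial markers had 0.41, 0.02, 0.25 and 0.66, and granule cell markers had 0.24, 0.35, 1.42 and 0.53. The part of these cells in the small heat shock results was not tested. A difference in the number of cells of a type and one in RNA per cell cannot be told apart in such samples.

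Apart from *Hspb1*, the stress-inducible chaperone genes did not pass the test. Of 8 genes in this class, 1 rose, 0 fell and 7 did not pass, with a median log2 fold change of 0.05 against 0.03 over all genes tested. In mutants 1 to 4, taken against the wild types of their own series, the class median was 0.09, 0.05, 0.09 and 0.16 on the scale of log2(CPM + 0.5).

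*Hspa1a* and *Hspa1b* encode the inducible HSP70, the classic read-out of a heat shock response, from a neighbouring pair of nearly identical genes between which reads can be split. *Hspa1a* was at 6.40, 5.70 and 2.50 CPM in wild types 1 to 3 and at 7.75, 6.02, 1.35 and 1.15 CPM in mutants 1 to 4. The second-series libraries were the lowest of each genotype, and the genotypes overlapped. The log2 fold change was −0.30 (SE 0.25, edgeR adjusted p = 0.53) for *Hspa1a* and −0.08 (SE 0.23, edgeR adjusted p = 0.87) for *Hspa1b*, and −0.19 (SE 0.22, edgeR adjusted p = 0.65) for their added counts. Per length, the pair reached only 1.92, 1.29 and 0.255% of the level of the constitutive HSP70 gene *Hspa8* in wild types 1 to 3, and 1.44, 1.45, 0.149 and 0.129% in mutants 1 to 4. This share thus followed the library series, with second-series libraries of both genotypes at 0.255% or less. The cause of that difference was not tested.

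*Dnajb1*, which encodes the inducible HSP40 that partners HSP70, was at 74.6, 73.8 and 60.9 CPM in wild types 1 to 3 and at 91.1, 97.5, 47.9 and 53.9 CPM in mutants 1 to 4. Both mutants of the first series were above its wild types, and both mutants of the second series were below theirs. *Hspa1a* had the same order of signs by series means, with 0.17 in the first and −0.78 in the second series on the scale of log2(CPM + 0.5), beside 0.34 and −0.26 for *Dnajb1*. These were the 2 members with an unadjusted interaction p under 0.05 (*Hspa1a* 0.0109, *Dnajb1* 0.0121), but the adjusted p over all genes was 0.64 and 0.68, and no member passed the interaction test, where 14 of 17621 genes did. Sex differs between genotypes in the second series alone, and its part was not tested.

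The abundant members of this class had log2 fold changes near 0. *Hsp90aa1*, the inducible cytosolic HSP90, was at 966, 949 and 1524 CPM in wild types and 815, 957, 1722 and 1843 CPM in mutants, with second-series libraries of both genotypes above all those of the first (log2 fold change 0.02, SE 0.11, 95% interval −0.23 to 0.27). *Hsph1*, an HSP110 that recharges HSP70 with ATP, had a log2 fold change of −0.04 (SE 0.09, 95% interval −0.24 to 0.16). *Dnaja1*, a cytosolic HSP40 with a zinc finger, had 0.08 (SE 0.12) and *Dnajb1* 0.10 (SE 0.13). For these 4 genes the upper end of the 95% interval was below 0.5.

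**Figure D3:**
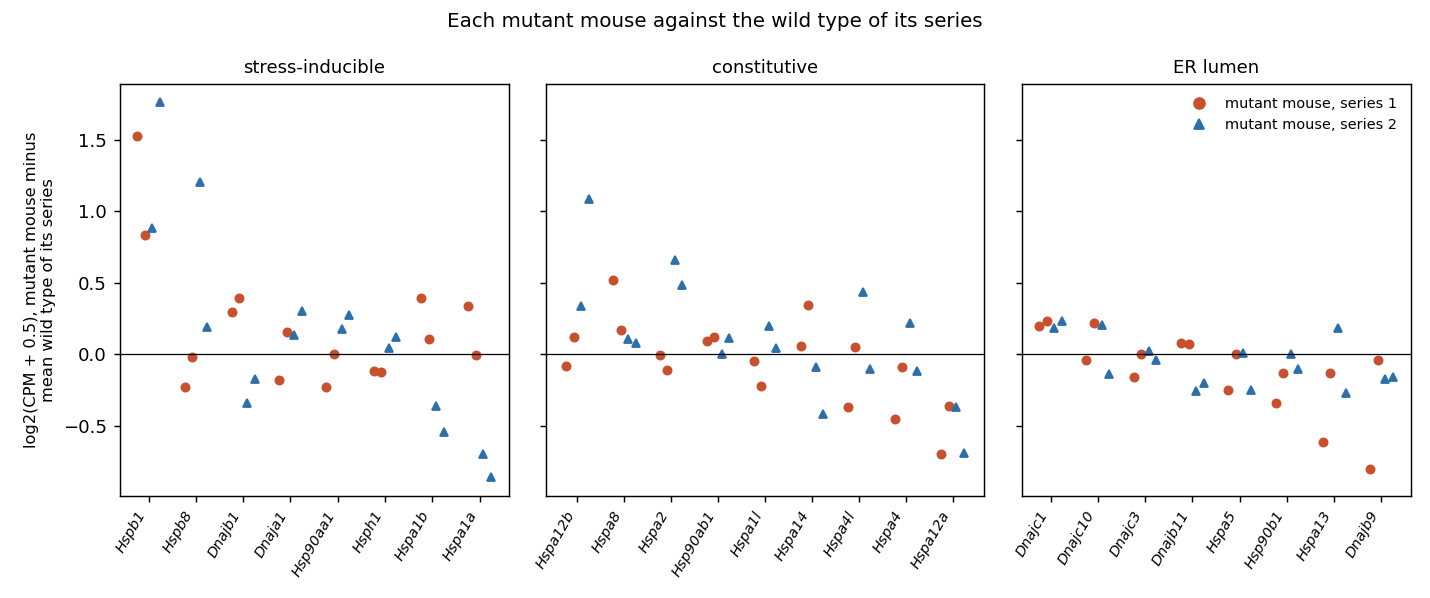
Difference of each mutant mouse from the mean wild type of its own series (y axis, log2(CPM + 0.5)) for the stress-inducible, constitutive and ER genes, with circles for the first and triangles for the second series. All 4 mutants are above 0 for *Hspb1* and below 0 for *Hspa12a*, and *Dnajb1* changes sign between the series.

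The constitutive chaperone genes include those with the highest levels of the family. Of 9 genes, 0 rose, 1 fell and 8 did not pass, with a median log2 fold change of 0.03. Per length, *Hsp90ab1* (626 RPKM in wild type, that is CPM per kilobase of exons), *Hspa8* (384 RPKM) and the inducible *Hsp90aa1* (292 RPKM) were the top 3 of the 65 genes, followed by *Hspa5* (215 RPKM), *Hsp90b1* (76.1 RPKM), *Hspa12a* (64.5 RPKM), *Hspa4* (61.8 RPKM) and *Dnajc5* (60.8 RPKM). These 8 genes held 66.8% of the summed RPKM of the family.

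*Hspa8*, the constitutive HSC70 that also uncoats clathrin and carries clients to the lysosome, was at 1013, 1206 and 2739 CPM in wild types 1 to 3 and at 1582, 1242, 2950 and 2898 CPM in mutants 1 to 4. The 4 mutants were above the wild types of their series, but the genotypes overlapped because the second series was higher as a whole (log2 fold change 0.25, SE 0.12, edgeR adjusted p = 0.27). *Hsp90ab1*, the constitutive HSP90, had a log2 fold change of 0.09 (SE 0.09, edgeR adjusted p = 0.60). The HSP110 genes *Hspa4* and *Hspa4l* had −0.13 (SE 0.13) and −0.01 (SE 0.16), and *Hspa14*, which acts at the ribosome, had 0.02 (SE 0.14). *Hspa2* (0.24, SE 0.20), *Hspa12b* (0.52, SE 0.34) and *Hspa1l* (0.03, SE 0.34) were at 5.54 CPM or less in every library, and the 95% interval of *Hspa12b* ran from −0.26 to 1.30.

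*Hspa12a*, at chr19:58795750-58943654, encodes a distant member of the HSP70 family that is abundant in brain. Wild types 1 to 3 were at 643, 611 and 525 CPM and mutants 1 to 4 at 387, 489, 406 and 325 CPM. Every mutant was below every wild type. The log2 fold change was −0.52 (SE 0.12, edgeR adjusted p = 0.0289). Both series gave the same size of fall, −0.53 and −0.53 on the scale of log2(CPM + 0.5).

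None of the 8 genes of the ER lumen passed the test, and their median log2 fold change was −0.09, with 6 of 8 below 0. Beside a count of 0 by edgeR's quasi-likelihood test, no ER gene had an unadjusted p under 0.05, and DESeq2 called 0 as well. *Hspa5* encodes BiP, the HSP70 of the ER and the standard marker of the unfolded protein response. It was at 846, 1044 and 839 CPM in wild types 1 to 3 and at 790, 943, 845 and 704 CPM in mutants 1 to 4. The genotypes overlapped, and the log2 fold change was −0.12 (SE 0.12, edgeR adjusted p = 0.58) with a 95% interval from −0.39 to 0.15. *Hsp90b1*, the ER HSP90 GRP94, had −0.17 (SE 0.11), and *Dnajc3*, which encodes the BiP partner P58IPK, had −0.05 (SE 0.09). All 3 are the ER genes with the ER stress letters printed above for *Hspa5*.

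*Dnajb9*, a BiP partner that the unfolded protein response induces strongly, was at 38.0, 33.0 and 26.0 CPM in wild types and at 20.1, 34.4, 23.0 and 23.3 CPM in mutants. Mutant 1 was the lowest, and mutant 2 lay among the wild types (log2 fold change −0.29, SE 0.17, edgeR adjusted p = 0.36). *Hspa13* had −0.22 (SE 0.17), *Dnajb11* −0.05 (SE 0.10) and the disulfide reductase gene *Dnajc10* 0.07 (SE 0.12). *Dnajc1*, a membrane protein that binds BiP, was separate between genotypes at a low level, with 7.90, 7.60 and 8.18 CPM in wild types and 8.96, 9.21, 9.37 and 9.71 CPM in mutants, but missed the threshold (log2 fold change 0.23, SE 0.11, edgeR adjusted p = 0.28).

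Side by side, the medians of the inducible, constitutive and ER classes were 0.05, 0.03 and −0.09, where the median of all genes was 0.03. In mutants 1 to 4 against the wild types of their series, the constitutive median was −0.05, 0.05, 0.20 and 0.05 and the ER median was −0.21, 0.00, 0.02 and −0.15. The stress-inducible class took 13.4 to 14.8% of the summed RPKM of the family in wild types and 12.9 to 17.3% in mutants, the constitutive class 41.6 to 48.0% and 43.4 to 48.0%, and the ER class 11.4 to 16.1% and 9.60 to 14.5%. The ranges of the genotypes overlapped in all 3 classes.

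Outside the 3 compared classes, the J protein genes *Dnajc9*, *Dnajc18*, *Dnajc27* and *Dnajc28* changed, with log2 fold changes from −0.57 to 0.40 and no overlap between genotypes. *Dnajc27*, at chr12:4082583-4110606, encodes RBJ, a protein with both a Rab-like GTPase domain and a J domain. It was at 241, 238 and 214 CPM in wild types 1 to 3 and at 173, 173, 144 and 142 CPM in mutants 1 to 4, a log2 fold change of −0.52 (SE 0.08, edgeR adjusted p = 0.00575). Wild types 1 and 2 lay close together, as did mutants 1 and 2 and mutants 3 and 4, while wild type 3 was the only wild type of the second series.

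*Dnajc18* encodes a J protein of the ER membrane. Its values were 111, 120 and 105 CPM in wild types and 85.7, 86.5, 77.6 and 75.3 CPM in mutants, and the highest mutant was well below the lowest wild type (log2 fold change −0.44, SE 0.08, edgeR adjusted p = 0.0126). *Dnajc28*, a little studied J protein listed here as mitochondrial, at chr16:91614254-91619026, was at 17.5, 16.2 and 11.6 CPM in wild types and 10.7, 11.03, 8.61 and 7.77 CPM in mutants (log2 fold change −0.57, SE 0.11, edgeR adjusted p = 0.0145). Its second-series libraries were the lowest of each genotype, and the gap between wild type 3 and mutant 2 was small.

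*Dnajc9*, at chr14:20384638-20388910, encodes a cochaperone that brings histones H3 and H4 to HSP70. It was at 28.1, 25.9 and 33.2 CPM in wild types and 35.9, 37.0, 39.2 and 46.3 CPM in mutants (log2 fold change 0.40, SE 0.10, edgeR adjusted p = 0.0407). The 6 J proteins listed here as nuclear or ribosome-associated had log2 fold changes from 0.0045 (*Dnajc21*, SE 0.12) to 0.46. Their median was 0.34 against 0.03 over all genes, and *Dnajc9* was the only one called. *Dnajc2* was closest to the threshold at 0.46 (SE 0.12, edgeR adjusted p = 0.0565). *Dnajc17* had only 9 to 18 counts in the first series. *Dnajc2*, *Dnajc17* and *Dnajc21* were named after their values were seen.

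Several calls depended on the covariate or on a few libraries. With the replicate block in place of the series, *Dnajc27* had an adjusted p of 0.0532, *Dnajc28* of 0.0797, *Dnajc18* of 0.0874, *Hspa12a* of 0.0961 and *Dnajc9* of 0.16. In that fit mutant 4 stands alone in its block and adds nothing to the difference between genotypes. Leaving out wild type 3, the only wild type of the second series, left *Hspb6* as the only gene called, and the 7 others lost their calls, *Hspb1* at an adjusted p of 0.14, *Hspb7* of 0.0533 and *Dnajc27* of 0.0720. The fits that lacked wild type 2 (0.0795) or mutant 1 (0.0774) did not call *Hspb1* either, and *Dnajc9* was lost without any 1 library other than mutant 3. *Dnajc18* was lost without wild type 2 as well, *Dnajc28* also without wild types 1 or 2 or mutant 2, and *Hspa12a* also without wild types 1 or 2 or mutants 1 or 4. No called gene changed its sign in any of these fits.

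Of the other classes, 0 of 7 further cytosolic DNAJA and DNAJB genes were called, with log2 fold changes from −0.08 to 0.26. Beside *Dnajc28*, the other 9 of 10 mitochondrial genes lay between −0.15 and 0.16. Beside *Dnajc18*, the 5 other membrane J proteins lay between −0.15 and 0.45, and beside *Dnajc27*, the 3 other vesicle J proteins lay between −0.28 and 0.14, among them *Dnajc5*, which encodes the synaptic vesicle cochaperone cysteine string protein (log2 fold change −0.05, SE 0.09). The 4 genes in no class lay between −0.05 and 0.16. In all, 13 of 65 genes (20%) did not overlap between genotypes, where 14.1% of all genes tested did not, and without *Hspb7* it was 12 of 64 (18.8%). The 8 called genes were among them, and the others were *Dnajb2*, *Dnajc1*, *Dnajc14*, *Dnajc16* and *Dnajc25*.

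Partners of these chaperones were read from 4 lists of 47 genes, chosen with earlier results of these data known. Of these, 1 rose and 0 fell, where 2.58% of all genes tested rose and 5.95% fell. Their median log2 fold change was −0.01. The gene that rose was *Sil1*, the nucleotide exchange factor of BiP. It was at 19.2, 26.8 and 43.1 CPM in wild types 1 to 3 and at 47.2, 35.4, 60.4 and 61.5 CPM in mutants 1 to 4. Within each series every mutant was above every wild type, although wild type 3 lay above mutant 2 (log2 fold change 0.70, SE 0.16, edgeR adjusted p = 0.0271). None of 21 cytosolic cochaperones was called, including *Hsf1* (log2 fold change 0.09), which encodes heat shock factor 1, and *Bag3* (log2 fold change −0.06), a target of it, and none of 8 subunits of the chaperonin TRiC (−0.09 to 0.11) or of 6 mitochondrial folding and protease genes (−0.07 to 0.18). Of the 12 ER folding genes the other 11 lay between −0.37 and 0.33.

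Some levels differed more between the library series, for which the file headers name different aligners, than between the genotypes. In the first series, 49.6 to 54.9% of the counts on *Hspb1* and its named pseudogene *Hsp25-ps1* lay on the pseudogene, against 0.624 to 1.13% in the second series. For *Hspa9*, the mitochondrial HSP70, the share was 48.2 to 51.8% against 0.0285 to 0.130%, for *Hspd1*, the mitochondrial HSP60, it was 63.1 to 66.7% against 0.355 to 0.613%, and for *Dnajc19* it was 76.8 to 86.2% against 0.440 to 0.517%. Within the first series the ranges of the genotypes overlapped for each of these genes. When the counts of the named pseudogenes were added to the parent genes, an alternative chosen after seeing the data, *Hspb1* still rose by 1.29 on the log2 scale (edgeR adjusted p = 0.0229), and 4 higher and 4 lower genes were called. In wild type, 8 of the 65 genes were over 2-fold higher in the second series than in the first and 3 were over 2-fold lower, with the median ratio at 1.17, so the RPKM above, means over the 3 wild types, mix the 2 series.

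**Figure D4:**
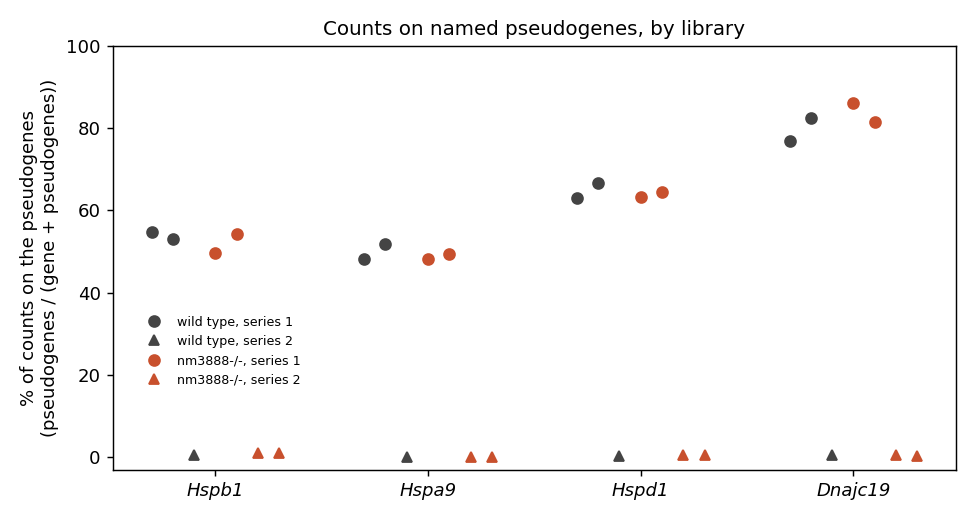
Share of counts on named pseudogenes (y axis, percent of the counts on gene and pseudogenes together) for 4 parent genes in each library, with circles for the first and triangles for the second series. First-series libraries of both genotypes lie between 48.2 and 86.2%, and second-series libraries lie near 0.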

How the data were processed

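RNA bound to HA-tagged ribosomes was sequenced from 7 cerebella, 3 wild type and 4 *nm3888*-/-. The authors used fastp to remove duplicates and adapters, mapped the reads to mm10, and assigned read pairs to GENCODE M25 genes by featureCounts 2.0.1 (reverse-stranded, both ends mapped), and the deposited values are raw counts. The methods name Bowtie2, while the file headers hold a Bowtie2 folder for the first library series and a STAR folder for the second. The library names define the series, since the batch of each library is not given in the sources used here. Totals ran from 18023017 to 107937386 counts. Processed pseudogenes took 8.19 to 9.51% of counts in the first and 0.118 to 0.166% in the second series.

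Symbols were matched by gene ID to GENCODE M21 (99.53% of 55401 genes). Genes passing filterByExpr were tested with edgeR 4.0.16 (R 4.3.3, limma 3.58.1) by glmQLFit and glmQLFTest after TMM, with series as a term and Benjamini-Hochberg adjustment over all genes, and the interaction of genotype and series was tested in the same way. CPM are counts scaled to the tested total times the TMM factor, RPKM are CPM per kilobase of exons, and differences of single mice use log2(CPM + 0.5). SE were taken from the fold change and its F statistic. The test was checked on simulated counts, with 50 changed genes at each size. It recovered 12 at 1.5-fold, 29 at 2-fold and 50 at 4-fold, so that changes of 1.5-fold were mostly missed. Of its 155 calls, 14 were false. DESeq2 1.42.0, other scalings, filters, covariates, each series alone, thinned counts and leaving out each library were run as alternatives. P-values measure the spread between mice.

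The genes, classes, marker and partner lists were chosen with earlier results of these data known. Named are all genes of the stress-inducible, constitutive and ER classes, all called genes, the 8 of highest wild-type RPKM, called partner genes (at most 6 a list), the 2 largest rises and falls of the other classes, and genes reaching the minimum in 1 genotype only. Granule, interneuron, choroid plexus, blood and other marker lists served as checks: the median log2 fold change was 0.29 over 6 interneuron, 0.63 over 5 choroid plexus and 0.79 over 5 blood markers, none called.

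Replicate numbers of the labels were checked for pairing. Deviations of same-numbered mice from their genotype means correlated at 0.914, 0.946 and 0.960 over genes, but so did those of differently numbered mice of the same series (0.926 to 0.956), while mice of different series were at −0.964 to −0.920, so the numbers follow the series. The fit with the numbers as a replicate block is given where it changes a call.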

Additional observations from a re-analysis of the deposited data

How the results depend on the processing

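Over 18 alternatives, 0 of 8 called genes changed sign. Of the values of 32 named genes under these alternatives, 56 were called values that lost the threshold and 52 were changes of sign in values past it in neither fit. The number called higher was 4 as reported, 0 without the series term or with sex in its place, 1 in the first series alone, and 1 to 4 when 1 library was left out. The number called lower was 4 as reported, 0 without the series term, with sex in its place, with the replicate block or in either series alone, and 0 to 4 when 1 library was left out, with 0 without wild type 3. DESeq2, and counts thinned to the smallest library, called 5 higher and 4 lower, and the fit without a filter called 3 and 4. The replicate block called 3 higher and 0 lower, and 812 genes over the whole table against 1504. The stress-inducible median was 0.0529 as reported, 0.1238 without the series term, 0.1442 with sex in place of series, 0.1544 in the second series alone and 0.0067 to 0.0887 with 1 library left out. The constitutive median ran from −0.0688 to 0.1058 and the ER median from −0.1703 to −0.0323. With 1 wild type in the second series, fits of that series alone or without a library assume that it varies like the others. At 0 to 7 counts, wild-type *Hspb7* is at the limit of this depth, and the low genes *Hspa1l*, *Hspa12b* and *Hspb8* have intervals over 1 wide on the log2 scale.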
